A study of Mus musculus with 8 samples.

Results

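*Cd22* and its relatives, the sialic acid binding receptors called Siglecs, were examined in the chronic stroke infarct together with *Cd24a*, whose product carries glycans bound by Siglec-G. The 8 genes (*Cd22*, *Cd33*, *Siglece*, *Siglecf*, *Siglecg*, *Siglech*, *Siglec1* and *Cd24a*) were taken by symbol from the 46078 gene identifiers in the files. *Cd22* was selected on its readout, because it was higher in treated infarcts while other genes of B lymphocytes were lower, so its treatment difference and that of the B lymphocyte genes are given as a description, without a test. The other 7 genes were taken as family members or ligand, and the question was whether *Cd22* moved with phagocyte genes or with B lymphocyte genes from animal to animal.

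Poly(A) RNA from infarcts of 8 wild-type C57BL/6J male mice aged 18 months was sequenced. Every animal had a DH stroke (distal occlusion of the middle cerebral artery plus hypoxia). From week 1 they were injected subcutaneously 3 times per week for 6 weeks, 4 of them with PBS (vehicle) and 4 with 2-hydroxypropyl-β-cyclodextrin (HPβCD, 4 g/kg), a cyclic sugar that takes up cholesterol, and infarcts were dissected 7 weeks after stroke. Infarcts were dissected manually as bulk tissue of mixed cell types, and no genotype or strain other than wild-type C57BL/6J was used.

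Siglecs are membrane proteins of immune cells that bind sialic acid, the sugar at the outer end of many glycans. Most carry cytoplasmic motifs that recruit the phosphatases encoded by *Ptpn6* and *Ptpn11* and so dampen activating receptors, whereas others pair with the adaptor encoded by *Tyrobp* or only mediate adhesion. CD22 and Siglec-G are known as brakes on B cell receptor signaling, and CD22 has also been described on microglia of aged mice, where it restrains phagocytosis. CD33 and Siglec-E are receptors of myeloid cells, Siglec-F marks eosinophils, Siglec-H marks plasmacytoid dendritic cells and microglia, and Siglec-1 (sialoadhesin) is an adhesion receptor of macrophages.

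Gene counts totaled 16.6 M to 32.9 M per library. Levels are given as CPM, counts brought to a common library total after TMM scaling. All 8 genes were among the 14736 kept by the filter on low counts, and the lowest count of any of them in any library was 10. Vehicle animals 1 and 3 stood apart in their neuron RNA: the summed level of 8 neuron genes was 943 and 5936 CPM in these libraries and between 8.57 and 83.9 CPM in the other 6. Values of the 8 genes, the *Cd22* relations and the called sialic acid genes are therefore also given without both. Other brain cell genes differed beyond these animals. The 6 astrocyte genes summed to 2187 to 9571 CPM in vehicle and 607 to 2531 CPM in HPβCD infarcts. For 6 oligodendrocyte genes the sums were 1617 to 5098 and 376 to 2202 CPM, with 2557 and 3306 CPM in vehicle animals 2 and 4. All 6 astrocyte and 5 of 6 oligodendrocyte genes were lower after HPβCD. Their part in the values below was not tested. HPβCD animal 3 also matters below, since it had the highest *Cd22* level.

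*Cd22* lies on chromosome 7 (30865402 to 30880342, minus strand, GRCm38, ENSMUSG00000030577). Its level was 76.1, 69.3, 58.4 and 67.6 CPM in vehicle animals 1 to 4. In HPβCD animals 1 to 4 it was 91.5, 96.4, 133 and 81.4 CPM. Every HPβCD animal thus lay above every vehicle animal, which is the pattern the gene was selected for. The group means were 67.9 ± 7.28 CPM and 101 ± 22.4 CPM (SD, n = 4 each), a log2 difference of 0.56 ± 0.17 (SE). Without HPβCD animal 3 the ratio of the means was 1.32 in place of 1.48. Without vehicle animals 1 and 3 the log2 difference was again 0.56. An annotated gene on the opposite strand, *Gm29439*, overlaps 9.5% of the *Cd22* exons and had 0 counts in all 8 libraries.

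**Figure D1:**
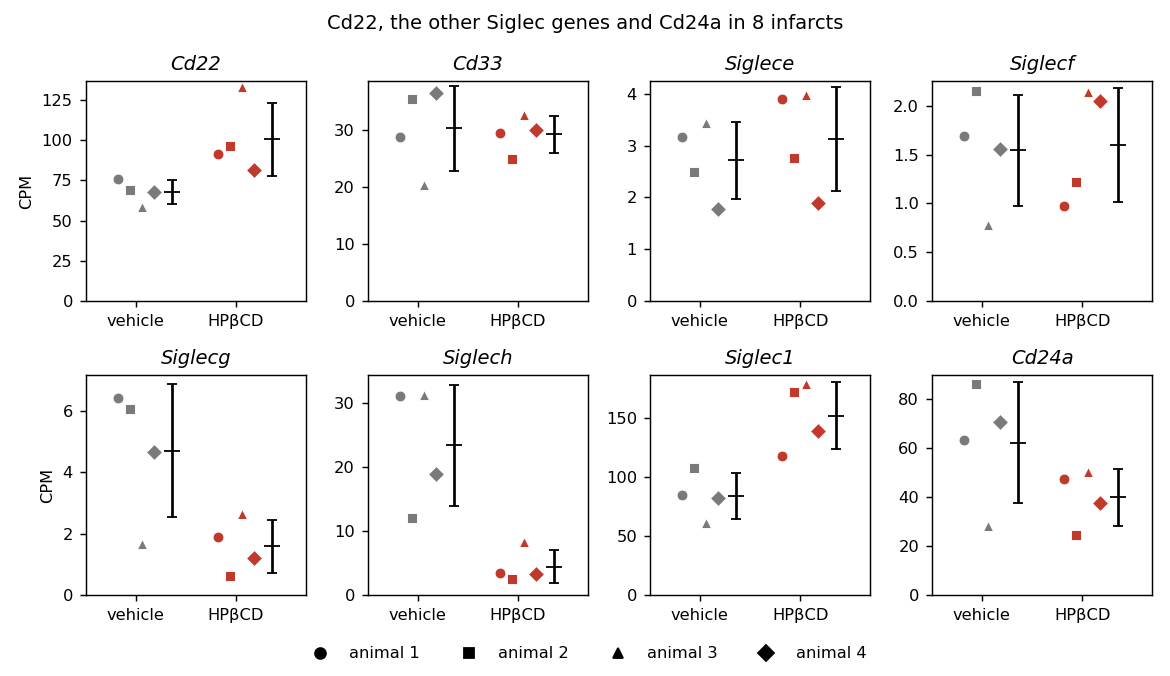
Level of each of the 8 genes (CPM, linear axes from 0) in vehicle infarcts (gray) and HPβCD infarcts (red), with a marker shape per animal number and bars for the mean ± SD of 4 animals. *Cd22* and *Siglec1* lay higher and *Siglech* lower in HPβCD infarcts without overlap, and the groups overlapped for the other 5 genes.

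The 12 genes of B lymphocytes moved the other way between the groups, as the selection implies. They summed to 199 to 712 CPM in the vehicle group and to 62.1 to 169 CPM in the HPβCD group, and all 12 were lower, with a median log2 difference of -1.98. *Ms4a1*, which encodes CD20, stood at 246, 273, 55.9 and 189 CPM in vehicle animals 1 to 4. In HPβCD animals 1 to 4 *Ms4a1* was at 73.1, 21.6, 56.0 and 47.9 CPM. HPβCD animal 3, highest in *Cd22*, was thus at the level of vehicle animal 3, lowest in *Cd22*, for *Ms4a1*. In bulk tissue RNA alone, fewer cells of a type and less RNA per cell cannot be told apart. By staining, the study reported fewer B220+ B lymphocytes in infarcts of aged mice given HPβCD by the same regimen.

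The 15 phagocyte genes were not part of the selection. Of these, 13 were higher and 2 lower in HPβCD infarcts, with a median log2 difference of 0.68, against -0.05 over all genes tested. The quasi-likelihood test of edgeR, with p-values adjusted over all tested genes (Benjamini-Hochberg), called 0 of the 15. At an unadjusted p under 0.05 there were 8, beside 27.8% of all tested genes, and DESeq2 called 8, all of them higher, beside 17.8% called in either direction over all genes. For 7 of the 15 every HPβCD animal lay above every vehicle animal, where 8.85% of all tested genes did so. *Cd68*, a lysosomal protein of macrophages, was at 103, 152, 115 and 142 CPM in vehicle and at 223, 224, 309 and 187 CPM in HPβCD animals 1 to 4. *Csf1r*, the receptor for the growth factor of macrophages and microglia, was at 483, 485, 385 and 467 CPM in vehicle and at 403, 475, 687 and 431 CPM in HPβCD animals, with overlap. The *Csf1r* level was highest in HPβCD animal 3, as for *Cd22*.

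The level of *Cd22* relative to each list was then taken as log2 CPM of *Cd22* minus the mean log2 CPM of the list. Relative to phagocyte genes it was -2.18 ± 0.24 in vehicle and -2.18 ± 0.04 in HPβCD infarcts (SD, n = 4 each). Thus the mean level of *Cd22* relative to this phagocyte list was the same in both groups, and its 4 HPβCD values lay within -2.23 to -2.15. Relative to B lymphocyte genes it was 1.29 ± 0.62 in vehicle and 3.83 ± 0.54 in HPβCD infarcts, a difference of 2.53. Such a match depends on the list. Between the groups the mean log2 CPM differed by 0.54 for phagocyte, 0.58 for foamy macrophage, 0.19 for border macrophage and -0.26 for microglia genes. Within the phagocyte list the log2 differences ran from -0.13 for *Aif1* and *Itgam* to 1.03 for *C1qa*. No test is given for the level of *Cd22* relative to a list, because the same contrast selected *Cd22*.

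A measure that the selection did not use is how *Cd22* varied among animals of the same group. For this, log2 CPM was taken as the deviation from the group mean, and a list score was the mean of these deviations over the genes of the list. *Cd22* deviated by 0.17, 0.03, -0.20 and 0.00 in vehicle animals 1 to 4. Its deviations in HPβCD animals 1 to 4 were -0.11, -0.04, 0.43 and -0.28. The phagocyte score deviated by -0.08, 0.17, -0.35 and 0.27 in the vehicle animals and by -0.13, -0.07, 0.48 and -0.28 in the HPβCD animals. Within the HPβCD group *Cd22* and the phagocyte score thus had the same order and nearly the same size of deviation, whereas vehicle animal 1 was highest in *Cd22* but below vehicle animals 2 and 4 in the score. The B lymphocyte score deviated by 0.49, 0.59, -1.07 and -0.01 in the vehicle animals and by 0.41, -0.78, 0.42 and -0.05 in the HPβCD animals. Like *Cd22*, it was lowest in vehicle animal 3 of that group, and HPβCD animals 1 and 3 were level at the top of theirs.

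Over the 8 libraries, *Cd22* had a Pearson r of 0.82 with the phagocyte score (exact permutation test within groups, two-sided, p = 0.0417, adjusted over 21 relations p = 0.170). Spearman's rho was 0.81 (exact p = 0.0330, adjusted 0.173). With the B lymphocyte score r was 0.52 (exact permutation p = 0.177, adjusted 0.308) and rho was 0.74 (exact p = 0.0278, adjusted 0.173). The difference between both r values was 0.31. Exact permutation of *Cd22* within groups gave p = 0.627 for a difference of this size. That permutation treats *Cd22* as unrelated to both scores, so it does not test whether both relations are equally strong. Both scores were themselves related, with r = 0.53 between them. The exact test of a relation could have returned a p as low as 0.00174, so the adjusted threshold was within its reach. None of the 21 relations passed an adjusted p of 0.05, and 6 of them had an unadjusted p under 0.05 for r. Over the 21 relations the lowest adjusted p of rho was 0.109. No relation passed after adjustment, and whether both r values differ was not tested. *Cd22* was therefore not assigned to phagocyte genes over B lymphocyte genes by its variation between animals.

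Leaving out the 2 animals farthest from the median of the score left r at 0.71 for phagocyte genes and at 0.53 for B lymphocyte genes. HPβCD animal 3 carried much of the first value: without it r was 0.56 with the phagocyte score and 0.52 with the B lymphocyte score, a difference of 0.04. Without vehicle animals 1 and 3, r was 0.98 and 0.33 (n = 6). In that smaller set the same exact permutation gave p = 0.479 for the difference, which again does not test whether both relations are equally strong.

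**Figure D2:**
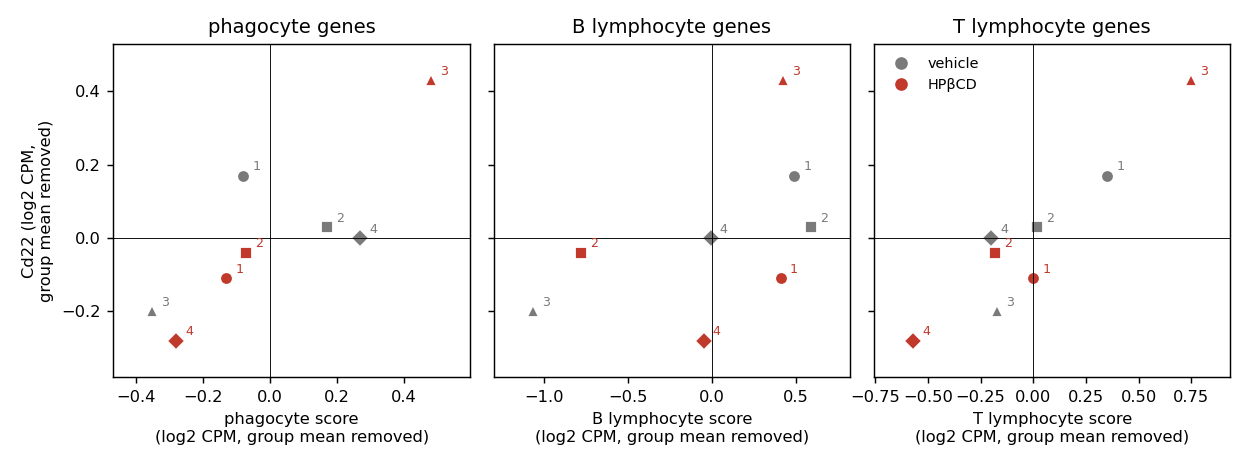
*Cd22* (y axis) against the scores of phagocyte, B lymphocyte and T lymphocyte genes (x axes), all as log2 CPM with the group mean removed, for 4 vehicle (gray) and 4 HPβCD infarcts (red) labeled by animal number. HPβCD animal 3 lies at the upper right in each panel, at 0.43 for *Cd22* and at 0.48, 0.42 and 0.75 for the scores.

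Among further lists, *Cd22* had r = 0.78 with microglia genes (exact permutation p = 0.0486, adjusted 0.170) and r = 0.74 with genes of foamy macrophages (exact p = 0.0833, adjusted 0.219). Their rho values were 0.69 (exact permutation p = 0.0885, adjusted 0.204) and 0.71 (exact p = 0.0694, adjusted 0.201). Leaving out the 2 farthest animals gave 0.21 for microglia genes, so that relation rested on those animals, and 0.48 for foamy macrophage genes. With border macrophage genes r was 0.30, with plasma cell genes -0.05 and with neuron genes 0.09 (exact permutation p = 0.441, 0.943 and 0.788, adjusted 0.617, 0.974 and 0.974).

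Gene by gene, 14 of 15 phagocyte genes and 12 of 12 B lymphocyte genes had a positive r with *Cd22*. The median r was 0.77 for phagocyte genes and 0.47 for B lymphocyte genes, beside 0.00 over all other tested genes, whose 90th percentile was 0.56. The highest phagocyte gene was *Csf1r* (0.93) and the lowest was *Lyz2* (-0.15), which encodes lysozyme and had the highest level of the list. Among B lymphocyte genes r ranged from 0.20 for *Fcmr*, an IgM receptor, to 0.74 for *Cd79b*, a chain of the B cell receptor complex. The T lymphocyte list had the highest median r, 0.83 over 7 genes, with *Cd3e* at 0.96 and *Cd8a* at 0.94. These are correlations across the same 8 libraries, they share depth and composition of each library, and no test is attached to them. Without HPβCD animal 3 the medians were 0.49 for phagocyte, 0.45 for B lymphocyte and 0.72 for T lymphocyte genes.

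**Figure D3:**
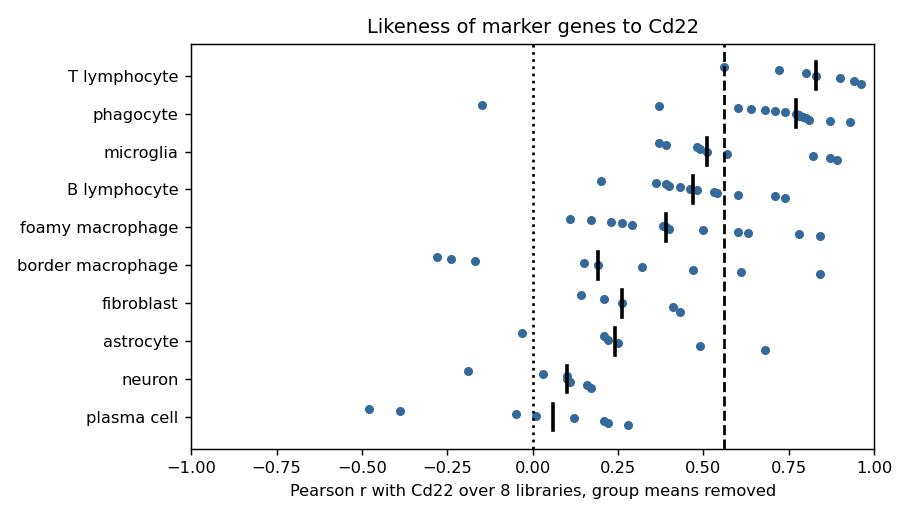
Pearson r with *Cd22* over 8 libraries with group means removed (x axis) for each gene of 10 marker lists (rows), with a bar at the median of the list. The dotted line marks the median of all other tested genes (0.00) and the dashed line their 90th percentile (0.56), and the medians of the T lymphocyte list (0.83) and the phagocyte list (0.77) lie above the dashed line.

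The 10 genes whose pattern within groups was most like *Cd22*, among those that averaged 1 CPM or more, were *Cxcl9*, *Igtp*, *Tap1*, *Ifi211*, *Tigit*, *Tslp*, *Birc5*, *Tdrd7*, *Irf1* and *Tlr12*. *Cxcl9*, a chemokine induced by interferon gamma, had the highest r (0.971, n = 8). It stood at 29.5, 10.8, 5.65 and 9.13 CPM in vehicle and at 8.32, 8.33, 43.2 and 4.33 CPM in HPβCD animals 1 to 4. As for *Cd22*, vehicle animal 1 and HPβCD animal 3 were highest and vehicle animal 3 and HPβCD animal 4 lowest in their groups. *Igtp*, an interferon-induced GTPase (r = 0.967), was at 29.5, 21.9, 15.0 and 19.0 CPM in vehicle and at 16.4, 22.3, 36.0 and 14.8 CPM in HPβCD animals. *Tap1*, a transporter for antigen peptides (0.965), and *Irf1*, a transcription factor of the interferon response (0.958), had the same highest animal in each group. Between the treatments, 0 of the 10 passed an adjusted p of 0.05 by edgeR (1 had an unadjusted p under 0.05) and 0 by DESeq2. The log2 differences of *Cxcl9*, *Igtp*, *Tap1* and *Irf1* were 0.22 ± 0.82, 0.07 ± 0.32, 0.19 ± 0.30 and 0.45 ± 0.26 (SE). In 8 of the 10, HPβCD animal 3 was the highest of all 8 libraries. Without it, their r with *Cd22* ranged from 0.86 to 0.95. The remaining libraries had also picked these genes, so that range is no independent check. The 10 are the highest r among many genes over 8 libraries, and whether such values exceed chance was not tested.

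Upstream sequences are shown for *Cd22*, for *Siglech*, whose treatment difference was largest in the family, and for *Igtp* and *Irf1*, the like genes that hold the first of the searched motifs. They were picked after the search, and whether interferon genes are frequent among the 10 was not tested. The sequences are RefSeq promoter windows (GRCm38.p6), 5′ to 3′ on the strand of the gene, without any annotated exon of that gene. For *Cd22* this leaves 148 of the 250 bases, and they lie inside the gene model given above, because the RefSeq start is downstream of the 5′ end of that model. The 250 bases before each start were searched on both strands for TTCNNNGAA, the site of interferon gamma activated STAT factors, and for GAAANNGAAA, the repeat read by interferon regulatory factors. Matches are in capitals.
*Cd22* (chr7:30879029-30879176, minus strand): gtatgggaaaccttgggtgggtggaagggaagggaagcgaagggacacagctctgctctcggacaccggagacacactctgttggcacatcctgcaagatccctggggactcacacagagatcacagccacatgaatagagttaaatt
*Siglech* (chr7:55767934-55768177, plus strand): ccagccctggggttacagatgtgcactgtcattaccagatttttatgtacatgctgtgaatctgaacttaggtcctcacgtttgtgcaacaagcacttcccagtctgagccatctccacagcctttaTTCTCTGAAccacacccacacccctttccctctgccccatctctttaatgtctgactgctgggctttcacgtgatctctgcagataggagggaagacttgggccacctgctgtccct
*Igtp* (chr11:58199306-58199555, plus strand): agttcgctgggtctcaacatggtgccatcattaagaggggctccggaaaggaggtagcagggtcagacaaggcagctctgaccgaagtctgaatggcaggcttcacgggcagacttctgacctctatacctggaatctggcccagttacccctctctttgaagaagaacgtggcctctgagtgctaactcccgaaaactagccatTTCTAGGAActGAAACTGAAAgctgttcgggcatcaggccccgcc
*Irf1* (chr11:53769764-53770013, plus strand): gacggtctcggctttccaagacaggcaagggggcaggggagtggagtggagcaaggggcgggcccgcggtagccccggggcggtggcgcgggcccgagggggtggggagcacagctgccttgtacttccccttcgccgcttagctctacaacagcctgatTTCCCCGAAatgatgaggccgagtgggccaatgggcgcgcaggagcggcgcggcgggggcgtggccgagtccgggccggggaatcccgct
Of 32851 promoter windows in the table, 7.02% hold TTCNNNGAA and 2.98% hold GAAANNGAAA. *Igtp* holds both, next to each other, *Irf1* and *Siglech* hold the first, and the *Cd22* window holds neither. Of the 9 like genes with a window in the table, 2 hold the first (*Igtp* and *Irf1*) and 3 the second (*Igtp*, *Ifi211* and *Tdrd7*). Of the 6 family members in the table, *Siglech* alone holds the first and 0 hold the second. GGAAGT, the core read by ETS factors, was searched as well. It is in 19.74% of the windows, in those of *Cd33*, *Siglecf* and *Siglech* among the 6 members, and in 5 of the 9 like genes. The percentages count windows, whereas a gene counts if any of its windows holds the motif. *Irf1* has 2 windows, and the one shown was picked as a window that holds a match. A match describes letters in the window and not a bound site.

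Turning to the 7 genes other than *Cd22*, 3 were higher and 4 lower in HPβCD infarcts, with a median log2 difference of -0.05, the same as over all genes tested. edgeR called 1 of the 7, *Siglech*, where it called 1.95% of all tested genes. At an unadjusted p under 0.05 there were 3 of the 7 (*Siglech*, *Siglec1* and *Siglecg*) beside 27.8% of all genes. DESeq2 called the same 3, beside 17.8% of all genes, and limma-voom called 4, with *Cd24a* added, beside 22.1%. Groups did not overlap for *Siglech*, which was lower, as were 7.95% of all genes, and for *Siglec1*, which was higher, as were 8.85%.

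*Siglech* (chromosome 7, 55768178 to 55778925, plus strand, ENSMUSG00000051504), whose receptor signals through the adaptor of *Tyrobp*, stood at 31.2, 12.1, 31.3 and 19.0 CPM in vehicle animals 1 to 4. In HPβCD animals 1 to 4 it was at 3.50, 2.57, 8.26 and 3.33 CPM. The lowest vehicle animal was above the highest HPβCD animal, and vehicle animals 1 and 3 were highest. The log2 difference of *Siglech* was -2.40 ± 0.45 (SE), a 5.29-fold lower level, with an adjusted p of 0.0483 by edgeR. Without vehicle animals 1 and 3 the log2 difference was -1.79 ± 0.44 (adjusted p = 0.0872). The call was lost without vehicle animal 1, vehicle animal 4 or any HPβCD animal, with adjusted p up to 0.169 and log2 differences from -2.90 to -2.22.

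The genes of both cell types that carry Siglec-H were read beside it. Of 9 microglia genes, 3 were higher and 6 lower, and their sum was 624 to 1229 CPM in the vehicle group and 876 to 1371 CPM in the HPβCD group. *P2ry12*, a purine receptor of homeostatic microglia, averaged 44.3 ± 8.41 CPM in the vehicle group and 21.9 ± 6.94 CPM after HPβCD (log2 difference -1.02 ± 0.26, adjusted p = 0.0658 by edgeR). *Cx3cr1*, the fractalkine receptor, was 215 ± 72.0 and 97.7 ± 34.6 CPM (log2 difference -1.14 ± 0.31, adjusted p = 0.0724). *Olfml3* went the other way, from 69.0 ± 9.63 to 127 ± 31.7 CPM (log2 difference 0.88 ± 0.21, adjusted p = 0.0621). edgeR thus called 0 of the 9, and 5 had an unadjusted p under 0.05, beside 27.8% of all tested genes. DESeq2 called *Olfml3* higher and *P2ry12* and *Cx3cr1* lower, beside 17.8% called over all genes. Of 3 genes of plasmacytoid dendritic cells, *Ccr9* was at 0.722 to 2.47 CPM in the vehicle group and 1.50 to 1.98 CPM in the HPβCD group, and *Klk1* was at or near 0 in every library. *Cox6a2*, the other gene of that list, was 1.13 ± 0.237 and 0.562 ± 0.213 CPM (log2 difference -0.99 ± 0.35, adjusted p = 0.111 by edgeR, 0.130 by DESeq2 and 0.0399 by limma-voom), lower as *Siglech* was. The part of either cell type in the *Siglech* result was not tested.

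*Siglec1* (chromosome 2, 131069220 to 131086765, minus strand) stood at 84.5, 108, 60.7 and 82.6 CPM in vehicle animals 1 to 4. In HPβCD animals 1 to 4 it was at 118, 172, 179 and 139 CPM. All HPβCD animals were above all vehicle animals. The log2 difference was 0.85 ± 0.21 (SE), 1.81-fold, with an edgeR adjusted p of 0.0636 and a DESeq2 adjusted p of 0.00488. In the edgeR fits that left out a library, adjusted p ranged from 0.0453 to 0.190. The log2 difference without vehicle animals 1 and 3 was 0.68 ± 0.20 (adjusted p = 0.123). Its r with the phagocyte score was 0.70 and with the B lymphocyte score 0.42 (exact permutation p = 0.0764 and 0.340, adjusted 0.219 and 0.510). Without the 2 farthest animals these values were 0.85 and 0.38. Border macrophage genes, among them *Mrc1* and *Cd163*, did not move together: of 9, 5 were higher and 4 lower. Of these 9, edgeR called 1, *Stab1*, which was higher, beside 1.95% of all tested genes.

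*Siglecg* (chromosome 7, 43408204 to 43418358, plus strand) and its ligand gene *Cd24a* (chromosome 10, 43578284 to 43584265, plus strand) were lower on average in HPβCD infarcts. *Siglecg* stood at 6.42, 6.07, 1.68 and 4.67 CPM in vehicle and at 1.89, 0.612, 2.63 and 1.22 CPM in HPβCD animals 1 to 4. Vehicle animal 3 lay within the HPβCD range, and the other vehicle animals above it. The log2 difference was -1.57 ± 0.52 (edgeR adjusted p = 0.10, DESeq2 adjusted p = 0.0233). *Cd24a* was at 63.5, 86.3, 28.1 and 70.8 CPM in vehicle and at 47.2, 24.4, 50.3 and 37.8 CPM in HPβCD animals 1 to 4. Again vehicle animal 3 lay within the HPβCD range. Its log2 difference was -0.64 ± 0.35 (edgeR adjusted p = 0.265). Without vehicle animals 1 and 3 the log2 differences were -1.74 ± 0.45 for *Siglecg* and -0.96 ± 0.26 for *Cd24a* (edgeR adjusted p = 0.0918 and 0.102).

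Both genes had a higher r with the B lymphocyte score than *Cd22* did. *Siglecg* had r = 0.97 with it (exact permutation test, p = 0.00521, adjusted 0.0911), with rho = 0.90 (exact p = 0.00521, adjusted 0.109). *Cd24a* had r = 0.95 (exact permutation test, p = 0.00868, adjusted 0.0911), with rho = 0.83 (exact p = 0.0278, adjusted 0.173). These were the lowest p-values of the 21 relations, and neither passed after adjustment. Without the 2 animals farthest from the median, vehicle animal 3 and HPβCD animal 2, r was 0.83 for *Siglecg* and 0.62 for *Cd24a*. With the phagocyte score they had r = 0.65 and 0.66 (exact permutation p = 0.141 and 0.115, adjusted 0.268 and 0.241), which became 0.56 and 0.69 without the 2 farthest animals. The spread within groups of the log2 ratio to the B lymphocyte score was 0.251 for *Siglecg*, 0.204 for *Cd24a* and 0.584 for *Cd22* (SD). To the phagocyte score this spread was 0.694, 0.461 and 0.174. The B lymphocyte score itself varied more than the phagocyte score and more than *Cd22*, which by itself widens the spread of *Cd22* to it. These spreads therefore do not tell which list a gene followed, and their order was not tested. *Cd24a* is also known from neurons and ependymal cells: of 4 ependymal genes, *Foxj1* was at 1.44 to 8.73 CPM in the vehicle group and 0.632 to 4.13 CPM in the HPβCD group, and the other 3 were at or near 0. The part of these cells in the *Cd24a* values was not tested.

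*Cd33*, *Siglece* and *Siglecf* form a cluster with *Siglecg* on chromosome 7 that spans 309 kb, and none of these 3 was called by edgeR, DESeq2 or limma-voom. *Cd33* was at 28.8, 35.4, 20.4 and 36.5 CPM in vehicle and at 29.5, 24.9, 32.6 and 29.9 CPM in HPβCD animals 1 to 4. Its log2 difference was -0.05 ± 0.20 (edgeR adjusted p = 0.889), and its sign turned in 3 fits that left out a library. *Siglece* ranged from 1.77 to 3.43 CPM in the vehicle group and from 1.89 to 3.97 CPM in the HPβCD group (log2 difference 0.20 ± 0.32, edgeR adjusted p = 0.722). *Siglecf* was 1.54 ± 0.568 and 1.60 ± 0.586 CPM (SD, n = 4 each), with a log2 difference of 0.04 ± 0.38 (edgeR adjusted p = 0.963) whose sign turned in 6 of the alternatives, among them scaling by library totals alone. Without vehicle animals 1 and 3 the log2 differences were -0.29 ± 0.15 for *Cd33*, 0.55 ± 0.37 for *Siglece* and -0.21 ± 0.41 for *Siglecf* (edgeR adjusted p = 0.305, 0.400 and 0.792). Without a library in turn that of *Siglece* ranged from 0.06 to 0.38. A p above the threshold does not show that these genes had equal levels in both groups.

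With the phagocyte score *Cd33* had r = 0.73 (exact permutation p = 0.0365, adjusted 0.170, rho = 0.69), *Siglecf* 0.59 (exact p = 0.191, adjusted 0.308, rho = 0.57) and *Siglece* 0.02 (exact p = 0.974, adjusted 0.974, rho = 0.05). With the B lymphocyte score *Cd33* had r = 0.80 (exact permutation p = 0.0417, adjusted 0.170, rho = 0.55), which became -0.23 without vehicle animal 3 and HPβCD animal 2 and so rested on them. *Siglecf* had r = 0.65 with that score (exact permutation p = 0.113, adjusted 0.241), which became -0.04 in the same way. *Siglece* had r = 0.07 with it (exact permutation p = 0.880, adjusted 0.974). *Siglech* had r = 0.17 with phagocyte genes and 0.01 with B lymphocyte genes (exact permutation p = 0.740 and 0.970, adjusted 0.971 and 0.974). The relations of *Siglece* and *Siglech* moved widely when the 2 farthest animals were left out, to 0.89 for *Siglece* with B lymphocyte genes and to -0.82 for *Siglech* with phagocyte genes. Eosinophil genes were read beside *Siglecf*. *Prg2*, a granule protein, averaged 5.53 ± 1.37 CPM in the vehicle group and 0.511 ± 0.428 CPM after HPβCD (log2 difference -3.42 ± 0.50, edgeR adjusted p = 0.0389), whereas the defining markers *Epx*, *Ear6* and *Prg3* were at or near 0 in both groups. The 6 eosinophil genes summed to 7.94 to 9.91 CPM in the vehicle group and 0.612 to 2.30 CPM in the HPβCD group. In the vehicle group most of this sum was *Prg2* and *Il5ra*. *Il5ra* was 2.17 ± 1.39 and 0.296 ± 0.275 CPM (log2 difference -2.87 ± 0.68, edgeR adjusted p = 0.0624). With the defining markers near 0, the sum cannot be read as eosinophils. The values of *Siglecf* overlapped between the groups. Neutrophil genes, read beside *Siglece*, summed to 18.3 to 34.5 CPM in the vehicle group and 24.8 to 54.1 CPM in the HPβCD group. In the HPβCD group most of this sum was *Mmp8* (16.8 to 27.6 CPM). *Ly6g* and *Retnlg* did not exceed 1.18 CPM in any library, so this sum cannot be read as neutrophils.

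Per kilobase of merged exons, which allows levels to be set side by side, *Cd24a* was highest in vehicle infarcts (24.1 ± 9.55 CPM per kb, SD, n = 4), followed by *Cd22* (13.5 ± 1.44) and *Siglec1* (11.7 ± 2.70). The ranges of *Cd22* and *Siglec1* overlapped (11.6 to 15.1 and 8.49 to 15.1), as did that of *Cd24a* with both. *Siglech* (6.91 ± 2.81) and *Cd33* (3.90 ± 0.955) came next, each overlapping the gene above it, and the range of *Cd33* lay above that of *Siglece*. *Siglece* (1.47 ± 0.400), *Siglecg* (0.981 ± 0.449) and *Siglecf* (0.554 ± 0.204) were lowest, and these 3 overlapped from neighbor to neighbor. In HPβCD infarcts *Siglec1* (21.3 ± 4.02) and *Cd22* (19.9 ± 4.44) were highest, with overlapping ranges, and the range of *Cd24a* (15.5 ± 4.51, 9.47 to 19.5) overlapped both. *Siglech*, at 1.30 ± 0.766 CPM per kb, then lay below *Cd33* (3.76 ± 0.410) without overlap, and its range overlapped that of *Siglece* (1.69 ± 0.540).

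**Figure D4:**
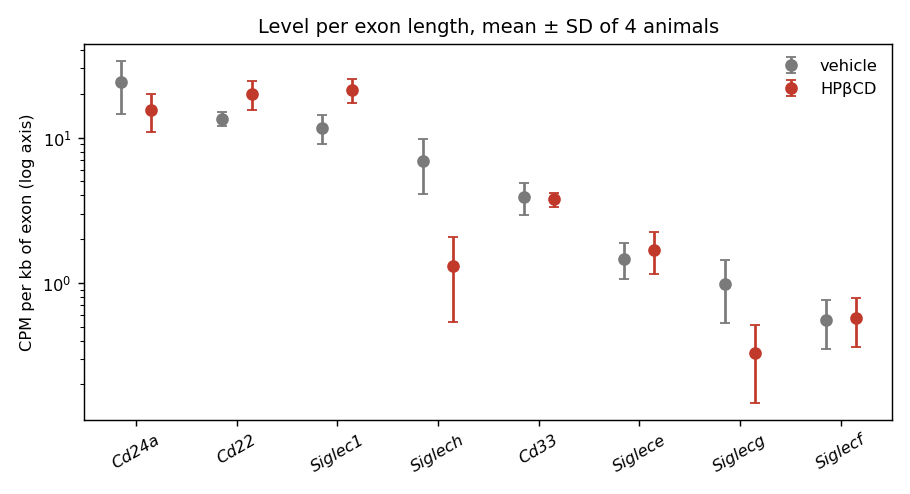
Mean level of each gene per kilobase of exon (CPM per kb, log axis) in vehicle (gray) and HPβCD infarcts (red), with bars for the SD of 4 animals, ordered by the vehicle mean. *Siglech* stood above *Cd33* in vehicle infarcts (6.91 and 3.90) and below it in HPβCD infarcts (1.30 and 3.76).

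The genes that make, attach and remove sialic acid and those that relay Siglec signals were read in 5 lists of 50 genes, of which 44 passed the filter. Together 21 were higher and 23 lower, with a median log2 difference of -0.05. edgeR called 2 of the 44, *St6galnac2* higher and *Cmah* lower, beside 1.95% of all tested genes. At an unadjusted p under 0.05 there were 13, beside 27.8%, and DESeq2 called 10, 5 in each direction, beside 17.8%, so these shares lay near those over all genes. *Cmah* encodes the hydroxylase that makes the N-glycolyl form of sialic acid, which is the form mouse CD22 prefers. It was at 54.3, 66.3, 35.8 and 35.2 CPM in vehicle and at 15.3, 7.04, 9.92 and 12.8 CPM in HPβCD animals 1 to 4. All HPβCD animals were below all vehicle animals. The log2 difference of *Cmah* was -2.09 ± 0.30 (SE), with an adjusted p of 0.0389 by edgeR. It was -2.16 ± 0.32 without vehicle animals 1 and 3 (adjusted p = 0.0346). The call was lost with library totals alone (adjusted p = 0.0517) and without vehicle animal 1 or 4 or HPβCD animal 1, 2 or 3 (adjusted p up to 0.148), with log2 differences from -2.27 to -1.89 over the fits without a library. In the same list of 7 genes of synthesis and transport, *Gne*, the first enzyme of the pathway, was 34.9 ± 8.04 and 38.1 ± 3.23 CPM (adjusted p = 0.705), and the log2 differences of *Slc35a1*, *Cmas* and *Slc17a5*, the highest of the list, were 0.09, -0.12 and 0.30 (adjusted p from 0.293 to 0.846).

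Among 17 tested sialyltransferases, 5 were higher and 12 lower. *St6galnac2* was at 3.61, 4.73, 4.39 and 5.0 CPM in vehicle and at 9.82, 6.67, 9.92 and 9.04 CPM in HPβCD animals 1 to 4, without overlap. Its log2 difference was 1.00 ± 0.20 (edgeR adjusted p = 0.0483). It was 0.88 ± 0.23 without vehicle animals 1 and 3 (adjusted p = 0.0950). Of the fits that left out a library, the one without vehicle animal 3 alone kept the call (adjusted p = 0.0416), and the others had adjusted p up to 0.168 with log2 differences from 0.92 to 1.11. *St6gal1*, which makes the linkage that CD22 binds, was 152 ± 36.7 and 185 ± 22.2 CPM (log2 difference 0.28 ± 0.19, adjusted p = 0.383), the highest CPM of the list. *St8sia4*, which builds polysialic acid, was 108 ± 53.1 and 68.7 ± 18.9 CPM (-0.66 ± 0.40, adjusted p = 0.324), and *St6galnac4* 53.7 ± 2.38 and 88.1 ± 17.9 CPM (0.71 ± 0.16, adjusted p = 0.0577). *St8sia3* reached 108 and 93.0 CPM in vehicle animals 1 and 3, the libraries with much neuron RNA, and at 0.0574 to 1.61 CPM in the other 6. *St8sia1* was likewise highest in these 2 libraries, at 18.4 and 44.6 CPM beside 7.30 and 9.78 CPM in vehicle animals 2 and 4. In HPβCD infarcts *St8sia1* was at 3.16 to 4.34 CPM, below every vehicle animal (log2 difference -2.36 ± 0.55, adjusted p = 0.0624 by edgeR and 0.000288 by DESeq2). Of 7 genes of removal and modification, *Ctsa*, the protein that stabilizes lysosomal sialidase, was 239 ± 23.6 and 391 ± 85.2 CPM (log2 difference 0.71 ± 0.18, adjusted p = 0.0659). *Siae*, an esterase acting on sialic acid, was 73.7 ± 11.5 and 104 ± 2.53 CPM (0.49 ± 0.14, adjusted p = 0.0768), and *Neu1*, the lysosomal sialidase itself, 85.2 ± 14.8 and 116 ± 25.7 CPM (adjusted p = 0.177). Groups did not overlap for 2 of these 7, *Ctsa* and *Siae*, both higher, as were 8.85% of all tested genes.

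Of 10 signaling partners, 7 were higher and 3 lower. edgeR called 0 of them, beside 1.95% of all tested genes, and 2 had an unadjusted p under 0.05, beside 27.8%. DESeq2 called *Tyrobp* higher and *Ptpn11* lower, beside 17.8% called over all genes, so these counts lay near those shares. *Tyrobp* was at 116, 111, 97.7 and 165 CPM in vehicle and at 235, 243, 315 and 148 CPM in HPβCD animals 1 to 4. Its log2 difference was 0.94 ± 0.25 (edgeR adjusted p = 0.0724), while *Siglech*, whose product needs this adaptor, was lower. *Ptpn11* was 246 ± 12.1 and 190 ± 16.9 CPM (log2 difference -0.38 ± 0.12, edgeR adjusted p = 0.0976), and *Lyn*, the kinase that phosphorylates CD22, 232 ± 84.0 and 241 ± 24.5 CPM (0.05 ± 0.28, adjusted p = 0.927). *Ptpn6*, the phosphatase recruited by CD22, was 53.0 ± 11.8 and 46.8 ± 11.3 CPM (log2 difference -0.18 ± 0.22, adjusted p = 0.630). Its r with *Cd22* within groups was 0.86, the highest of this list. *Mag*, the Siglec of myelin, is 18833 bp away from *Cd22* on chromosome 7. It was at 53.7, 19.7, 18.5 and 25.6 CPM in vehicle and at 2.07, 2.88, 30.1 and 8.32 CPM in HPβCD animals 1 to 4 (log2 difference -1.44 ± 0.86, edgeR adjusted p = 0.318). Its r with *Cd22* was 0.70 and became 0.07 without HPβCD animal 3. The 6 oligodendrocyte genes were also high in that animal, with a sum of 2202 CPM beside 376 to 1325 CPM in the other HPβCD animals.

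**Figure D5:**
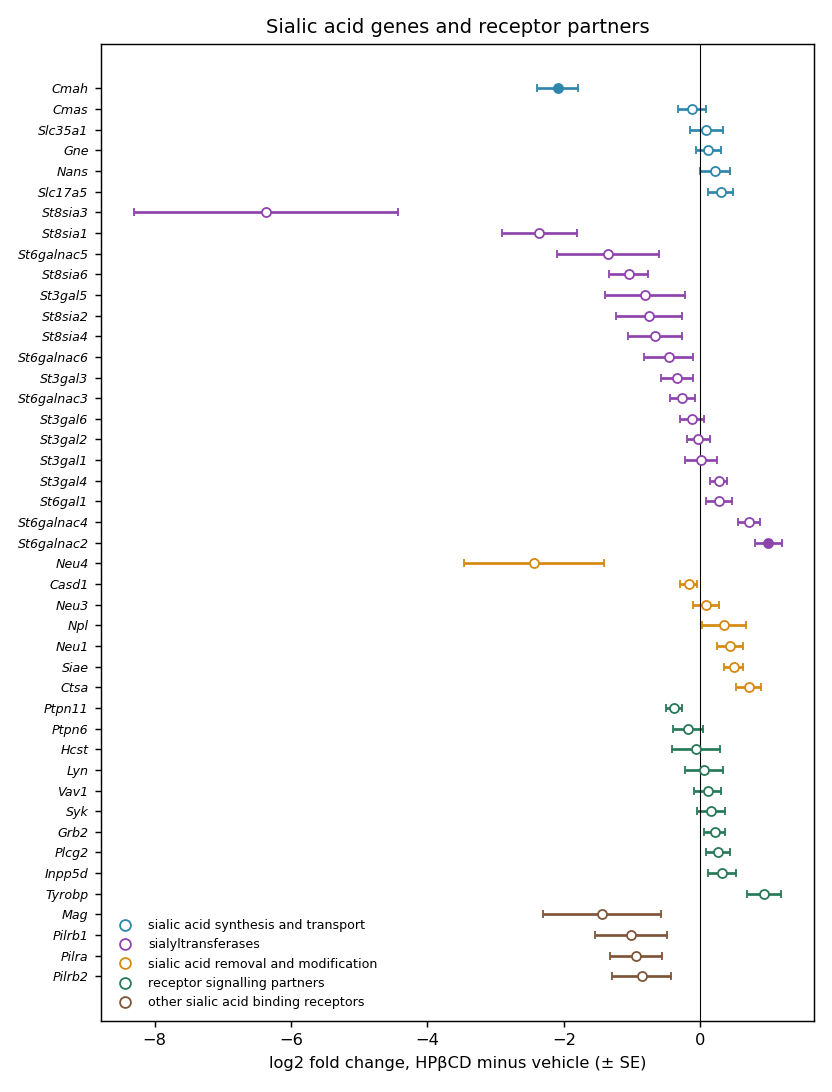
Log2 fold change with SE (HPβCD minus vehicle, x axis) of the 44 tested genes of sialic acid metabolism and Siglec signaling (rows), colored by list, with filled points for an edgeR adjusted p under 0.05. *Cmah* (-2.09) and *St6galnac2* (1.00) are the filled points, and *St8sia3* has the widest error (1.94).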

How the data were processed

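Poly(A) RNA of 8 infarcts was sequenced as strand-specific paired-end reads, and the authors trimmed them with Trimmomatic 0.32, aligned them with STAR 2.5.2b to GRCm38 and counted reads per gene with HTSeq. The deposited values are raw counts per gene in 46078 Ensembl identifiers; 5 further lines hold unassigned reads (26.6% to 36.6% of a library) and were left out. The strand setting of the counting and the annotation release were not given in the sources used here. Reads aligning to several places were not assigned, so genes with near-identical copies are undercounted. Exon lengths and positions come from GENCODE M21, symbols from a table that matched 45143 identifiers, and promoters from RefSeq (32851 windows).

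Groups came from the labels, which name no batch. edgeR 4.0.16 in R 4.3.3 fitted both groups (filterByExpr, TMM, robust quasi-likelihood test, adjusted p under 0.05); DESeq2 1.42.0, which the study used, and limma-voom (limma 3.58.1) were alternatives. Log2 CPM used a prior count of 2. Relations were tested exactly over all 576 orders of animals within groups. The procedures were tested on simulated data. Members and lists were chosen with earlier results of these data known. Besides the members, genes are named if called, among the 3 highest of a pathway list, or among the 10 most like *Cd22* (proper symbol, mean of at least 1 CPM); other genes of the lists that illustrate a result were chosen after their values were seen. No 2 libraries agreed within sampling noise (lowest chi-square per degree of freedom 19.8).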

Additional observations from a re-analysis of the deposited data

Results flagged for a closer look

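In 86 groups of 4 animals (8 members, 8 scores, the genes most like *Cd22* and the named sialic acid genes, each in both treatments), 4 values stood apart from the other 3 animals of their group by Dixon's ratio of gap to range. Chance flags about 1 group in 20, or 4.3 of 86. None of the 8 members was among them. *Tslp*, an epithelial cytokine, was at 1.42 log2 CPM in HPβCD animal 3 and at 0.14 to 0.25 in the others of its group (ratio 0.909). *Cmas*, which activates sialic acid, was at 5.96 in vehicle animal 3, beside 5.12 to 5.26 (0.831). *Lyn*, the kinase that phosphorylates CD22, was at 6.78 in vehicle animal 3, beside 7.96 to 8.17 (0.854). *Slc17a5*, the lysosomal sialic acid exporter, was at 5.19 in HPβCD animal 1, beside 5.46 to 5.48 (0.934).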

How the results depend on the processing

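Of all tested genes edgeR called 287. DESeq2 called 2619, limma-voom 3253, edgeR with library totals alone 11, and edgeR without vehicle animals 1 and 3 called 191; leaving out each library in turn gave 0 to 598. Of the 7 members other than *Cd22* (1 called), DESeq2 called 3, limma-voom 4, library totals alone 0, and the fit without vehicle animals 1 and 3 called 0, with 0 to 2 in the fits without a library. Of the sialic acid and partner genes (2 called), the counts were 10, 12, 0 and 1 in the same order, 1 without the filter on low counts, and 0 to 4 without a library. No gene was called when either vehicle animal 1 or 4, or either HPβCD animal 2 or 3, was left out, with 2830 to 4122 genes then at an unadjusted p under 0.05. The causes were not tested. With the replicate block, edgeR called 9 genes, 0 members and 0 sialic acid genes (*Siglech* adjusted p = 0.0690, *Cmah* 0.0788, *St6galnac2* 0.0952). Animals with the same number did not deviate together throughout (r = -0.26, 0.24, 0.33 and 0.10 for numbers 1 to 4). The HPβCD animal with the highest r had the same number for vehicle animals 2 and 3 and another number for vehicle animals 1 and 4. These values do not settle whether the numbers pair the animals, and the labels do not say.

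Over the fits without a library the log2 difference of *Cd33* (-0.05) ranged from -0.20 to 0.06 and that of *Siglecf* (0.04) from -0.17 to 0.25. The sign of *Cd33* turned to 0.03 without vehicle animal 2, 0.06 without vehicle animal 4 and 0.02 without HPβCD animal 2. That of *Siglecf* turned to -0.39 with limma-voom, -0.06 with library totals alone, -0.21 without vehicle animals 1 and 3, -0.17 without vehicle animal 3, -0.14 without HPβCD animal 3 and -0.11 without HPβCD animal 4. The r of *Cd22* kept its sign in all 12 alternatives for either score, and so did the difference between both. The permutation p of the difference, which assumes no relation with either score, was not under 0.05 in any. As a ratio in place of a correlation, the within-group SD of log2 *Cd22* minus the score was 0.174 for phagocyte and 0.584 for B lymphocyte genes. The larger variation of the B lymphocyte score enters this measure, so it does not decide between the lists. With 4 animals per group and counts of 10 to 87 for *Siglece*, *Siglecf* and *Siglecg* in most libraries, small differences of these genes could not be detected.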
